A study of Mus musculus with 16 samples.

Results

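CNO was compared with vehicle in whole striatal lysate, the input from which astrocyte ribosomes were then precipitated. The comparison uses 8 of the 16 libraries of the series: input libraries titled C2 to C5 (CNO) and V2 to V5 (vehicle), and every gene in their files. All mice were male wild-type C57BL/6J adults at postnatal day 63. They were given 1 mg/kg CNO or vehicle, and whole striata were taken 2 hours later. The other 8 libraries hold ribosome-bound RNA pulled down through an HA (hemagglutinin) tag from the same lysates (IP). The titles carry 8 mouse codes while the series text speaks of 4 mice, and neither names the virus, promoter, receptor or protein that carries the tag, so what limits the cells reached is not given in the sources used here. Input libraries are labelled as striatal astrocyte too, although they were made from cleared lysate of the whole tissue. Apart from the mouse codes, nothing says that replicates are separate animals, so p-values measure the spread between these samples.

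CNO (clozapine N-oxide) is a small molecule used to activate designer receptors, and the Gi-coupled version of these was made from the human M4 muscarinic receptor. Gi proteins inhibit adenylyl cyclase and release βγ subunits, and in astrocytes Gi-coupled receptors such as the GABA-B receptor are known to raise intracellular calcium. The striatum is made mostly of medium spiny neurons, so in RNA of whole lysate a change in astrocytes alone is diluted by the RNA of other cells. In such bulk samples, fewer cells of a type and less RNA per cell cannot be told apart.

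The input libraries held from 32751710 to 40331510 reads on 17097 genes, and Pearson correlations of log2 levels were 0.9837 to 0.9921 within CNO, 0.9691 to 0.9907 within vehicle and 0.9733 to 0.9901 between the groups. Levels are given as counts-per-million (CPM), recovered from the deposited log2 values over a normalized library size. Vehicle libraries 3 and 5 stood apart from the rest: they lay at opposite ends of the first principal component, which held 36.02% of the variance, while the second held 19.7%. The 21 markers of blood-borne leukocytes summed to 184 CPM in vehicle 3 and 2214 CPM in vehicle 5, against 566 to 1129 CPM in the CNO libraries. The 20 microglia markers summed to 1067 and 2650 CPM in the same 2 vehicle libraries. Such sums weigh abundant members most, and single microglia markers such as P2ry12 and Gpr34, given below, spread far less over the vehicle libraries. The sum of the 36 astrocyte markers varied little, from 10150 to 11560 CPM over all 8 libraries, and no member was at 0 in all of them. Single members such as Gfap, given below, varied more. Medium spiny neuron markers were present at 12220 to 17350 CPM over 22 genes. The main counts below are therefore also given without vehicle 3 and 5, an alternative chosen after seeing the data.

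**Figure D1:**
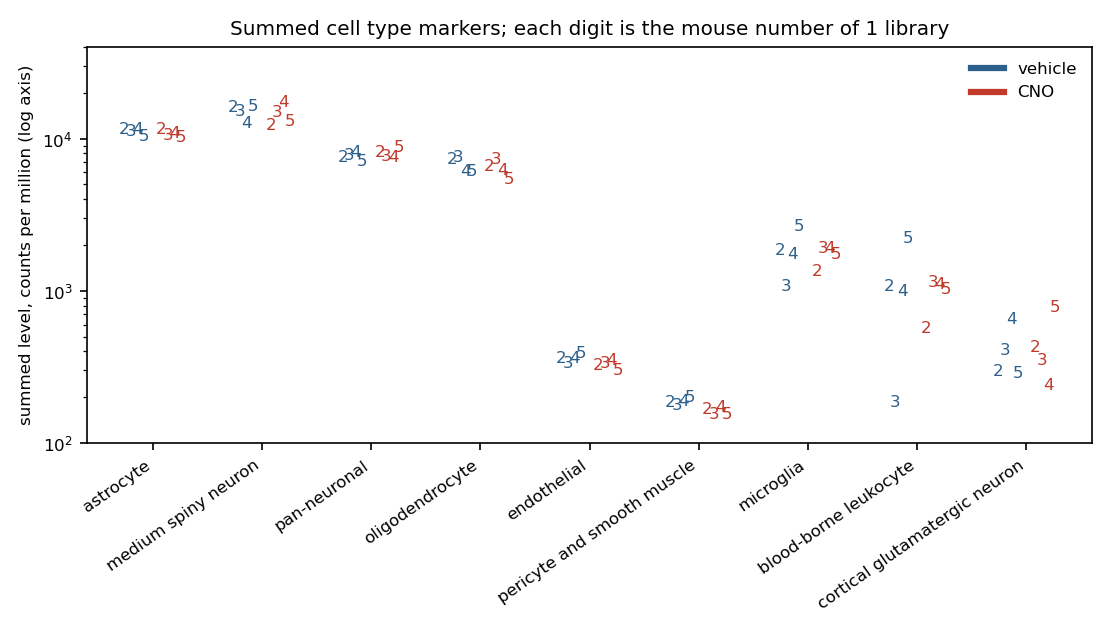
Summed level of cell type marker lists (counts-per-million, log axis) in each input library; each digit is the mouse number of 1 library, blue for vehicle and red for CNO. Vehicle 3 and vehicle 5 hold the lowest and the highest leukocyte sum (184 and 2214 CPM), while the astrocyte sums lie between 10150 and 11560 CPM.

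In the striatum 2 hours after CNO, 12 of 20 genes for AP-1 and related factors, 10 of 26 cholesterol synthesis genes, 6 of 23 cytokine genes and 6 of 16 cAMP-responsive genes were higher, and none of these was lower. Among genes that reached 1 CPM, Il11, Fosl1, Gem, Maff, Atf3 and Socs3 rose the most, and none of the decreases that passed the test reached 2-fold. Of 15825 genes tested, 129 were higher after CNO (0.815%) and 29 were lower (0.183%) at an adjusted p under 0.05 by limma. Of the 129, 59 were at least 2-fold higher. The median log2 change was 0.93 among the 129 and -0.51 among the 29, against -0.022 over all genes tested. In each of the 158 genes the 4 CNO libraries did not overlap the 4 vehicle libraries; over all genes tested this held for 509 with CNO above (3.22%) and 637 with CNO below (4.03%). Without vehicle 3 and 5 the counts were 120 higher and 5 lower. Leaving out CNO 5 gave 85 higher, and the lower count fell to 8 without CNO 3, CNO 5 or vehicle 4, to 11 without vehicle 3 and to 4 without vehicle 2. With each of the 8 libraries left out in turn, 81 of the 129 higher genes and 4 of the 29 lower genes were called every time.

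**Figure D2:**
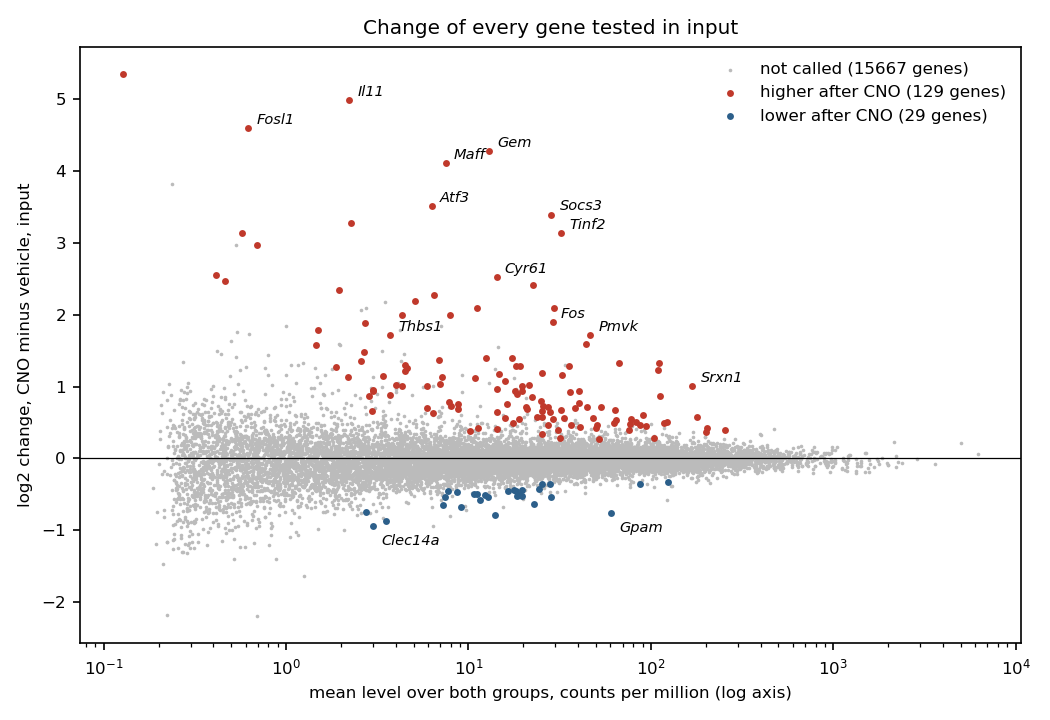
Log2 change in input (CNO minus vehicle, 4 libraries each) against the mean level of the 15825 genes tested (counts-per-million, log axis). The 129 genes called higher reach further from 0 than the 29 called lower, and no called decrease reaches 2-fold.

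**Figure D3:**
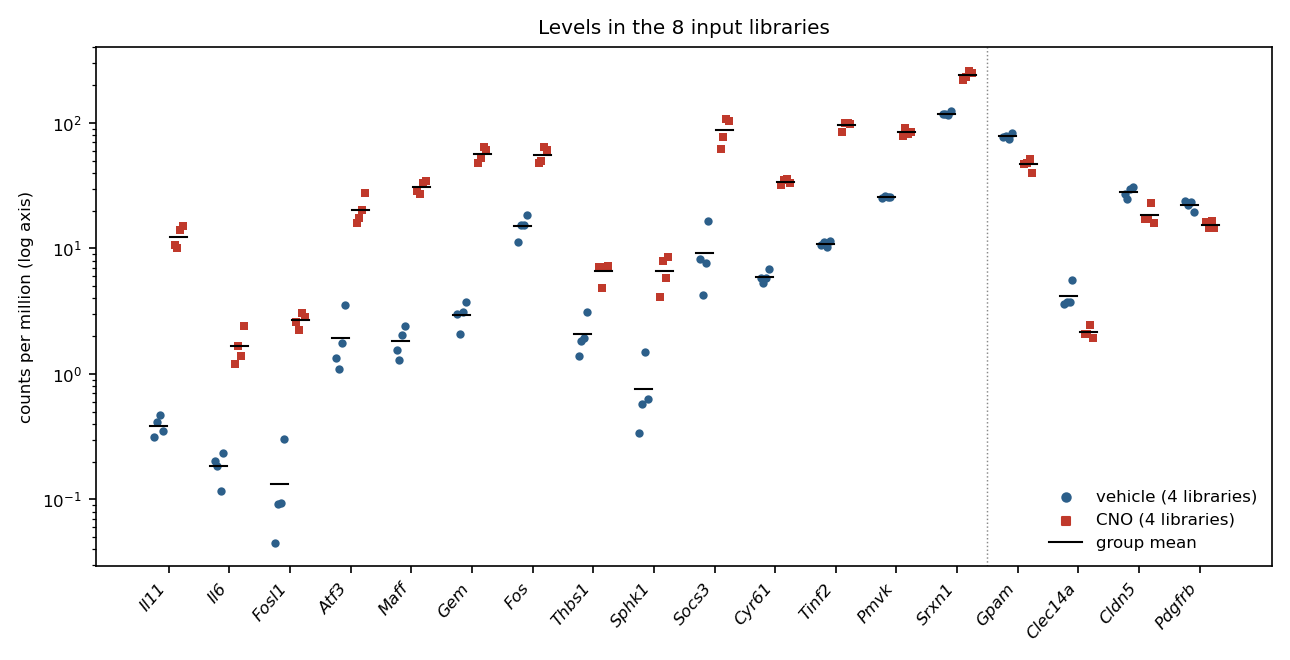
Level of 18 genes in each input library (counts-per-million, log axis); points are single libraries, blue circles for vehicle and red squares for CNO, and bars are group means. In every gene shown the groups do not overlap; the 14 genes left of the dotted line were higher after CNO and the 4 right of it lower.

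AP-1 is a dimer of Fos, Jun, ATF and Maf family proteins that forms within the first hours of many stimuli, and its genes are classed among the immediate early genes. Of 20 genes for AP-1 and related bZIP factors tested, 12 rose and 0 fell, with a median log2 change of 0.70. Fos itself stood at 47.6, 49.9, 64.1 and 60.6 CPM in CNO libraries 2, 3, 4 and 5, the order used throughout, and at 11.2, 15.3, 15.5 and 18.4 CPM in vehicle libraries 2, 3, 4 and 5. Each CNO library was thus above the highest vehicle library by more than 2-fold (log2 change 1.89, SE 0.15, adjusted p = 0.000368). Maff, a small Maf protein without a transactivation domain, stood at 28.4, 26.9, 33.2 and 34.2 CPM after CNO. After vehicle it stood at 1.56, 1.28, 2.04 and 2.4 CPM (log2 change 4.11, SE 0.19, adjusted p = 1.85e-06). Atf3, a stress-induced ATF family member, was at 15.8, 17.5, 20.4 and 27.6 CPM after CNO. Its vehicle values were 1.34, 1.1, 1.76 and 3.54 CPM, with vehicle 5 the highest (log2 change 3.51, SE 0.35, adjusted p = 0.00199). Fosl1, which encodes Fra-1, was near the limit of detection after vehicle, at 0.0453, 0.0917, 0.0938 and 0.302 CPM. After CNO it stood at 2.59, 2.24, 3.06 and 2.85 CPM (log2 change 4.59, SE 0.48, adjusted p = 0.000964), and because its vehicle level rests on few reads the size of its fold change is imprecise. Of its vehicle libraries only vehicle 5 reached the filter on low values (0.2335 CPM), so Fosl1 needed CNO libraries to be tested.

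The other members moved by varying amounts. Jun, a main partner of Fos, rose from 34.9 ± 1.69 to 57.7 ± 7.44 CPM (SD, n = 4 each, log2 change 0.72, SE 0.088, adjusted p = 0.00271). Crem, a cAMP-responsive regulator that can repress CRE sites, rose from 21.3 ± 2.98 to 34.8 ± 3.21 CPM (log2 change 0.72, SE 0.10, adjusted p = 0.00728). Fosl2, which encodes Fra-2, was 0.78 higher on the log2 scale (adjusted p = 0.0201), and its call was lost without CNO 2, CNO 4, CNO 5, vehicle 2, vehicle 3 or vehicle 4 (adjusted p from 0.0501 to 0.0895). Cebpd, a C/EBP factor of the acute phase response, averaged 50.5 ± 15.6 against 9.97 ± 4.89 CPM (log2 change 2.41, SE 0.38, adjusted p = 0.0361). Its vehicle libraries ranged from 5.29 CPM in vehicle 3 to 16.8 CPM in vehicle 5, the same libraries that held the fewest and the most leukocyte markers, and the part of this in the result was not tested. The Cebpd call was lost without CNO 2, CNO 3, CNO 4, CNO 5, vehicle 2, vehicle 3 or vehicle 4 (adjusted p from 0.0501 to 0.139). Its relative Cebpb, at 13.4 ± 2.48 and 6.28 ± 2.71 CPM, did not pass the test (log2 change 1.16, adjusted p = 0.133). Fosb, Mafk, Nfil3 and Atf4 complete the 12. The Fosb call was lost without CNO 4, CNO 5, vehicle 2, vehicle 3 or vehicle 4 (limma adjusted p from 0.0825 to 0.144). That of Mafk was lost without CNO 3, CNO 4, vehicle 2, vehicle 3 or vehicle 4 (limma adjusted p from 0.0555 to 0.082). The count was 7 without CNO 4, vehicle 2, vehicle 3 or vehicle 4, and 11 without vehicle 3 and 5 together.

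Among 31 immediate early genes tested, the transcripts that cells make without new protein synthesis, 14 rose and 0 fell (median log2 change 0.37). They did not move as 1 block. Fos and Fosb were among the 14, though the Fosb call was lost without some single libraries, while Arc, Npas4, Egr1 and Nr4a1 did not pass the test. Arc, a synaptic protein gene induced by activity, stood at 165 ± 48.5 CPM after CNO and 198 ± 28.9 CPM after vehicle (log2 change -0.30, adjusted p = 0.723). Npas4, a neuronal factor induced by depolarization, stood at 15.1 ± 4.04 and 16 ± 2.44 CPM (adjusted p = 0.923). Egr1, a zinc finger factor induced in neurons and glia alike, stood at 97.1 ± 14.6 and 103 ± 22.6 CPM (adjusted p = 0.949). Nr4a1 was likewise 58.3 ± 17.5 against 53.1 ± 12.8 CPM (adjusted p = 0.944), whereas its relative Nr4a3 rose from 4.3 ± 0.543 to 11.2 ± 1.67 CPM (log2 change 1.37, SE 0.14, adjusted p = 0.000891). Nr4a3 stood at 12.1, 8.84, 12.7 and 11.1 CPM after CNO and at 3.51, 4.75, 4.43 and 4.51 CPM after vehicle, so its groups were well apart. The growth arrest gene Gadd45g rose from 11.6 ± 0.9 to 28.4 ± 4.58 CPM (log2 change 1.28, SE 0.11, adjusted p = 0.000292), and Btg2, an antiproliferative gene, was 29.2 ± 2.6 against 19.8 ± 4.01 CPM without passing (adjusted p = 0.0961). Arc, Npas4, Egr1 and Nr4a1 were chosen for mention after their values were seen. The count of 14 was 9 without CNO 4, CNO 5, vehicle 2 or vehicle 4, and 13 without vehicle 3 and 5. Of 21 delayed activity-regulated genes, 4 rose (Rasd1, Tiparp, Trib1 and Crem) with a list median of -0.0062, against 0.815% called higher over all genes tested. That count was 1 without CNO 5 or vehicle 4, 2 without CNO 2, CNO 3, CNO 4 or vehicle 3, and 3 without vehicle 3 and 5 together.

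**Figure D4:**
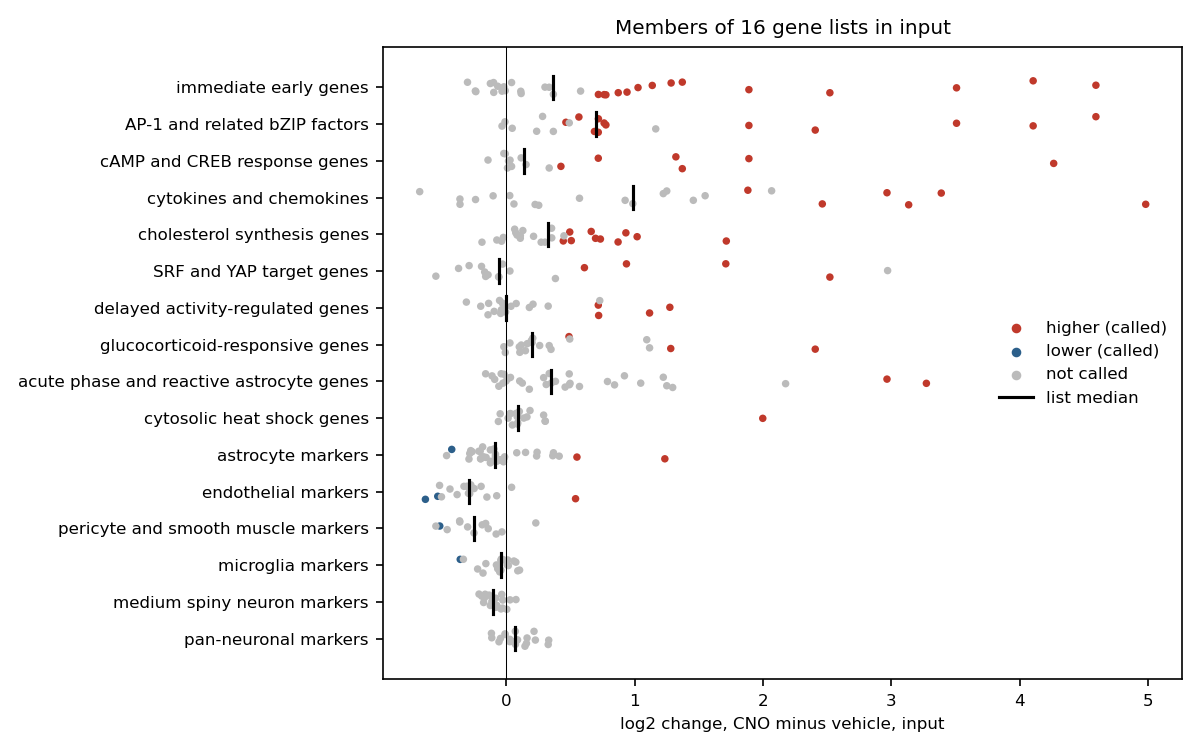
Log2 change in input (CNO minus vehicle) of the tested members of 16 gene lists; red points were called higher, blue points lower, grey points were not called, and black bars are list medians. The AP-1 and cytokine lists have the highest medians (0.70 and 0.99), and the neuron marker lists lie close to 0.

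The cytokine list held Il11, the largest increase among genes that reached 1 CPM. Of 23 cytokine and chemokine genes tested, 6 rose and 0 fell, with a median log2 change of 0.99. Il11, a secreted cytokine that signals through the gp130 receptor shared by the interleukin-6 family, stood at 10.7, 10, 14.1 and 15 CPM after CNO. After vehicle it was barely detected, at 0.317, 0.413, 0.469 and 0.349 CPM (log2 change 4.98, SE 0.20, adjusted p = 7.73e-07). Il6, the founding member of that family, stood at 1.2, 1.69, 1.39 and 2.4 CPM after CNO and at 0.204, 0.183, 0.117 and 0.233 CPM after vehicle (log2 change 3.13, SE 0.33, adjusted p = 0.0009). The 2 groups of Il6 did not overlap, but its level stayed under 3 CPM. Il6 is 1 of 3 called genes that passed the filter on low values through the CNO libraries alone, so a difference was built into its selection. Ptx3 and Cxcl1, described below, also had vehicle libraries under that filter of 0.2335 CPM, so both needed CNO libraries to be tested. The cytokine count includes Il6, Ptx3 and Cxcl1. Lif, another gp130 cytokine, rose from 1.44 ± 0.526 to 5.1 ± 0.907 CPM (log2 change 1.88, SE 0.27, adjusted p = 0.00728).

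Socs3, the feedback inhibitor that gp130 signalling induces, stood at 62.1, 77.4, 108 and 103 CPM after CNO and at 8.29, 4.22, 7.67 and 16.5 CPM after vehicle. Both groups were widely spread, and the lowest and highest vehicle values were those of vehicle 3 and vehicle 5 (log2 change 3.39, SE 0.40, adjusted p = 0.00927). Ptx3, a secreted pattern recognition protein, averaged 1.89 ± 0.537 against 0.242 ± 0.0898 CPM (log2 change 2.97, SE 0.35, adjusted p = 0.00216). Cxcl1, a neutrophil chemoattractant, averaged 1.01 ± 0.202 against 0.202 ± 0.104 CPM (log2 change 2.46, SE 0.45, adjusted p = 0.0323), and its call was lost without CNO 2, CNO 3, CNO 4, CNO 5 or vehicle 4 (adjusted p from 0.0686 to 0.13). Other chemokine genes did not pass: Ccl12 averaged 23.6 ± 6.84 against 8.91 ± 5.54 CPM (log2 change 1.55, adjusted p = 0.245), and Ccl7 averaged 4.43 ± 1.01 against 1.5 ± 1.52 CPM (adjusted p = 0.3). Without vehicle 5 the count of called cytokine genes was 10, and without vehicle 3 and 5 it was 8. Of 22 interferon response genes, limma called 0, limma-voom called 0 and 0 had an unadjusted p under 0.05. Their log2 changes lay above 0 in 20 of the 22, with a median of 0.18 against -0.022 over all genes tested. The leading member Isg15 stood at 16.3 ± 3.14 and 12.2 ± 8.57 CPM (limma adjusted p = 0.715), a wide spread after vehicle. Of 33 acute phase and reactive astrocyte genes, 2 rose: Ptx3 and Sphk1, the kinase that makes sphingosine-1-phosphate. At an unadjusted p under 0.05, 12 of the 33 were higher and 0 lower, against 641 higher and 954 lower of all 15825 genes tested. Sphk1 stood at 4.14, 7.98, 5.83 and 8.58 CPM after CNO and at 0.34, 0.573, 1.5 and 0.628 CPM after vehicle, with no overlap (log2 change 3.27, SE 0.43, adjusted p = 0.00613). Its call was lost without vehicle 3 and 5 together (adjusted p = 0.157). Gfap, the classic marker of reactive astrocytes, did not pass, at 524 ± 76.8 and 423 ± 198 CPM (adjusted p = 0.737).

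Cyclic AMP activates protein kinase A, which phosphorylates CREB, the factor that binds cAMP response elements (CRE) in promoters. Of 16 cAMP and CREB response genes tested, 6 rose and 0 fell, with a median log2 change of 0.13. Gem, a small GTPase that inhibits voltage-gated calcium channels, stood at 47.9, 52.6, 63.9 and 61.1 CPM after CNO and at 2.99, 2.06, 3.12 and 3.72 CPM after vehicle (log2 change 4.26, SE 0.17, adjusted p = 1.76e-06). Dio2, the deiodinase with which astrocytes activate thyroid hormone, stood at 169.9, 164, 179 and 187 CPM after CNO and at 69.9, 77.3, 79.6 and 55.8 CPM after vehicle (log2 change 1.32, SE 0.10, adjusted p = 0.000187). In both genes the groups were several SDs apart. Pde4b, a cAMP phosphodiesterase, averaged 237 ± 24.9 against 176 ± 9.56 CPM (log2 change 0.43, SE 0.08, adjusted p = 0.0394), and its call was lost without CNO 3, CNO 4, CNO 5, vehicle 2, vehicle 3, vehicle 4 or vehicle 5 (adjusted p from 0.0611 to 0.135). Sik1, a kinase that CREB induces, did not pass, at 28.4 ± 3.54 and 22.5 ± 1.77 CPM (adjusted p = 0.209). Fos, Nr4a3 and Crem, described above, are the other called members. Without vehicle 3 and 5 the count was 5.

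The promoter sequence of some of these genes shows the motifs that CREB and AP-1 bind. RefSeq windows (GRCm38.p6, 250 bases before to 50 after a start site) were found for 128 of the 158 called genes. The stretches below end at the base before the start site, run 5′ to 3′ along the gene's strand, and show in capitals matches on either strand to the full CRE (TGACGTCA), its half-site (TGACG) or the AP-1 motif (TGANTCA). They show a full CRE in Tinf2 and Dio2, half-sites alone in Fos, Atf3 and Cyr61, and AP-1 motifs in Tinf2, Il6, Bag3 and Srxn1. These genes, picked among those described in these results, all hold a motif and do not represent the called genes as a whole. The windows of Socs3, Ptx3, Jun, Pmvk, Mvk, Mvd, Ppp1r3c, Gadd45g, Ier3, Emd and Tnfrsf12a held no match to any of these motifs.
Fos (chr12:85473751-85473889, plus strand): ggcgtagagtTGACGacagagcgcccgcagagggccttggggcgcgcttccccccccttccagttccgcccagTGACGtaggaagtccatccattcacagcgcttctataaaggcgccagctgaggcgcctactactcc
Atf3 (chr1:191183334-191183443, minus strand): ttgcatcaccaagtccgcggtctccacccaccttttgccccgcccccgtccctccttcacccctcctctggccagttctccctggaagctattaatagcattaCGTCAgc
Cyr61 (chr3:145649986-145650095, minus strand): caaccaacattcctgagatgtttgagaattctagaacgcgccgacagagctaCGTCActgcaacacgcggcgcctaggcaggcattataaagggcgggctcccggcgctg
Dio2 (chr12:90739039-90739148, minus strand): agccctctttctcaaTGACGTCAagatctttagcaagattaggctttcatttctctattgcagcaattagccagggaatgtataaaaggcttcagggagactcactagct
Tinf2 (chr14:55681818-55681970, minus strand): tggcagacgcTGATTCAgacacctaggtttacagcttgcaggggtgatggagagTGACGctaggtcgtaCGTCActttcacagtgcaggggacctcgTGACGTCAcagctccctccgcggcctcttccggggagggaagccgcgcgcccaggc
Il6 (chr5:30012864-30013113, plus strand): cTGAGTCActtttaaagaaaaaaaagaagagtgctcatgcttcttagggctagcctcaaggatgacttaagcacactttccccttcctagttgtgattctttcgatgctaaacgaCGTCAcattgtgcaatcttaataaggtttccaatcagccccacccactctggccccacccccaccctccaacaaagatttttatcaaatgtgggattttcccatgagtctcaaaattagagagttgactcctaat
Bag3 (chr7:128523473-128523582, plus strand): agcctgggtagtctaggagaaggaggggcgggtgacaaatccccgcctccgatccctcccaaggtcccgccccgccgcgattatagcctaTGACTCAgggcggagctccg
Srxn1 (chr2:152105412-152105523, plus strand): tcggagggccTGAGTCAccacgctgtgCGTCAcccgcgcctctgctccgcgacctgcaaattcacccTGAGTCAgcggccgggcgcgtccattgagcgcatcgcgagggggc

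The full CRE begins 95 bases before the start of Dio2 and 56 bases before that of Tinf2. Srxn1 holds 2 AP-1 motifs, 102 and 45 bases before its start. A full CRE occurred in 5.93% of the 135 windows of 107 higher genes, against 2.86% of the 15705 windows of genes tested and 1.79% of all 32851 windows. The half-site, which lies inside every full CRE, occurred in 44.4% of windows of higher genes, in 26.7% of the 30 windows of 21 lower genes and in 28.7% of windows of genes tested. AP-1 motifs occurred in 11.9% of windows of higher genes and 5.34% of windows of genes tested. The CArG box of the serum response factor occurred in 0.741% of windows of higher genes, which is 1 window, and in 1.32% of windows of genes tested. In the 30 windows of lower genes, a full CRE occurred in 3.33% (1 window), AP-1 motifs in 0% and the CArG box in 6.67% (2 windows). Some genes have several windows, the shares carry no test, and a match is a description of the letters, not of a bound site.

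Of 17 target genes of the serum response factor (SRF) and of YAP tested, 4 rose and 0 fell, and the list median was -0.058. The count was also 4 without vehicle 3 and 5. The share called higher over all genes tested was 0.815%. Cyr61, a secreted matrix protein now also called Ccn1, stood at 32, 34.8, 36 and 33.4 CPM after CNO. After vehicle it stood at 5.78, 5.27, 5.86 and 6.91 CPM, so the spread within each group was small beside the difference (log2 change 2.52, SE 0.091, adjusted p = 3.62e-07). Its relative Ctgf did not pass, at 33.2 ± 21.3 and 23.3 ± 8.71 CPM (adjusted p = 0.878). Tpm4, a tropomyosin that coats actin filaments, rose from 29.3 ± 4.02 to 55.8 ± 4.15 CPM (log2 change 0.94, SE 0.095, adjusted p = 0.000808). Flna, which cross-links actin, rose from 73.5 ± 9.12 to 112 ± 8.35 CPM (log2 change 0.61, SE 0.09, adjusted p = 0.00884). Cnn1, a smooth muscle calponin, had a fitted log2 change of 2.97 that did not pass (adjusted p = 0.198), at 1.1 ± 0.349 and 0.245 ± 0.326 CPM.

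Thbs1 encodes thrombospondin 1, a matrix protein that astrocytes secrete and that promotes synapse formation through the α2δ-1 receptor. It lies at chr2:118111876-118127133 (GRCm38, plus strand). Thbs1 stood at 7.08, 4.83, 7.16 and 7.24 CPM after CNO and at 1.38, 1.83, 1.95 and 3.12 CPM after vehicle. The lowest CNO value, in CNO 3, was still above the highest vehicle value, in vehicle 5 (log2 change 1.71, SE 0.24, adjusted p = 0.00674). Thbs1 was the only called gene of 19 thrombospondins and astrocyte synapse-organizing genes tested (list median 0.012). Thbs2 stood at 4.5 ± 0.659 and 4.00 ± 0.685 CPM, and Thbs4 at 5.22 ± 2.00 and 5.99 ± 1.65 CPM (adjusted p = 0.804 and 0.889). Sparcl1, which encodes the synaptogenic protein hevin, stood at 907 ± 76.5 and 970.1 ± 156 CPM (adjusted p = 0.89). The Thbs1 call held with each single library left out.

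The mevalonate pathway turns acetyl-CoA into cholesterol, and brain cholesterol is made locally, in adult brain largely by astrocytes. Of 26 cholesterol synthesis genes tested, 10 rose and 0 fell, with a median log2 change of 0.33. Pmvk, phosphomevalonate kinase, stood at 78.5, 91.5, 82.1 and 84.9 CPM after CNO and at 25, 26.2, 25.5 and 25.9 CPM after vehicle, with little spread in either group (log2 change 1.71, SE 0.057, adjusted p = 2.63e-07). The kinase that acts before it, Mvk, rose from 15.2 ± 1.41 to 30.7 ± 1.68 CPM (log2 change 1.02, SE 0.079, adjusted p = 0.000138). The decarboxylase that acts after it, Mvd, rose from 13.1 ± 1.13 to 24.9 ± 1.19 CPM (log2 change 0.93, SE 0.077, adjusted p = 0.000187). Msmo1, a sterol methyl oxidase, rose from 83.1 ± 7.95 to 152 ± 5.85 CPM (log2 change 0.87, SE 0.071, adjusted p = 0.000179). Idi1, Sqle, Cyp51 and Hsd17b7 rose by 0.69, 0.44, 0.49 and 0.66 on the log2 scale. The Idi1 call was lost without CNO 2, CNO 3, CNO 4, CNO 5, vehicle 2 or vehicle 4 (adjusted p from 0.052 to 0.115), and the Sqle call without CNO 2, CNO 3, CNO 5, vehicle 2, vehicle 4 or vehicle 5 (adjusted p from 0.0675 to 0.172). Insig1 and Fdft1 were higher in every CNO library but did not pass (adjusted p = 0.0823 and 0.0639). Srebf2, the gene for the main transcription factor of this pathway, stood at 114 ± 10.4 and 107 ± 5.93 CPM (adjusted p = 0.771). The list count was between 8 and 11 with any 1 library left out, and 10 without vehicle 3 and 5.

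Gpam and Srebf1, which act in glycerolipid and fatty acid synthesis, fell. Gpam, which catalyses the first step of glycerolipid synthesis, stood at 47.2, 47.5, 51.9 and 40.0 CPM after CNO and at 77.6, 78.5, 74.3 and 83.2 CPM after vehicle (log2 change -0.75, SE 0.078, adjusted p = 0.0009). Its groups were far apart, and it was the 1 lower gene that was called under every alternative tried. Srebf1, the gene for the main factor of fatty acid synthesis, fell from 98.3 ± 3.31 to 76.9 ± 7.17 CPM (log2 change -0.36, SE 0.07, adjusted p = 0.0462). That call was lost without any 1 of the 8 libraries, with adjusted p up to 0.172, and Srebf1 was picked for mention after its value was seen.

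Tinf2 gave the smallest p-value of all genes. It encodes TIN2, a shelterin protein that protects telomeres, and lies at chr14:55674689-55681820 (GRCm38, minus strand), where its gene body overlaps that of Gmpr2 on the other strand. Whether the counting used strand is not given in the sources used here. Tinf2 stood at 84.2, 99.8, 100.4 and 98.6 CPM after CNO. After vehicle it stood at 10.6, 11.3, 10.2 and 11.4 CPM, so the groups were far apart (log2 change 3.13, SE 0.071, adjusted p = 1.13e-08). Gmpr2 itself stood at 20.2 ± 2.19 and 20.3 ± 1.5 CPM and did not pass (adjusted p = 0.983). The gene bodies of Jun, Junb, Fosl1, Cebpb, Cebpd, Ptx3, Cyp51, Fdft1, Mafk, Mat2a, Srebf1, Rgs11, Ppfibp2, Gpr34 and P2ry12 also overlap a named gene on the other strand, and without strand the reads of such neighbours cannot be told apart. Sp6, an Sp family zinc finger factor, rose from 0.864 ± 0.135 to 4.4 ± 0.809 CPM (log2 change 2.34, SE 0.20, adjusted p = 0.000211), and Fam167a from 2.93 ± 0.306 to 14.1 ± 1.22 CPM (log2 change 2.27, SE 0.11, adjusted p = 3.06e-06).

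Ppp1r3c, a glycogen-targeting subunit of protein phosphatase 1 that marks astrocytes, stood at 142, 163, 192 and 173 CPM after CNO and at 72.2, 76.3, 68.9 and 65.5 CPM after vehicle (log2 change 1.24, SE 0.089, adjusted p = 8.39e-05). Ppp1r3g, of the same subunit family, rose from 7.71 ± 0.705 to 20.3 ± 2.29 CPM (log2 change 1.39, SE 0.10, adjusted p = 9.69e-05) and was picked after its values were seen. The most abundant called genes were Fem1b, Srxn1, Pde4b, Mat2a and Eprs. Srxn1, sulfiredoxin, which repairs oxidized peroxiredoxins, stood at 218, 231, 261 and 248 CPM after CNO and at 118, 117, 115 and 124 CPM after vehicle (log2 change 1.01, SE 0.063, adjusted p = 2.27e-05). Fem1b, a ubiquitin ligase adaptor, stood at 293 ± 18.5 and 223 ± 6.72 CPM (log2 change 0.39, SE 0.057, adjusted p = 0.00762), and was not called without vehicle 3 and 5 together (adjusted p = 0.09). Eprs, a transfer RNA synthetase, stood at 221 ± 20.4 and 147 ± 7.3 CPM (log2 change 0.58, SE 0.072, adjusted p = 0.00279). Mat2a, which makes S-adenosylmethionine, stood at 228 ± 12.2 and 178 ± 4.74 CPM (log2 change 0.36, SE 0.054, adjusted p = 0.00884), and its call was lost without vehicle 2 (adjusted p = 0.055). Slc2a1, the glucose transporter GLUT1, rose from 53.2 ± 2.58 to 77.5 ± 5.74 CPM (log2 change 0.54, SE 0.065, adjusted p = 0.0022), the only call among 23 hypoxia and glycolysis genes.

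Bag3, an HSP70 co-chaperone, rose from 3.97 ± 0.555 to 15.8 ± 1.59 CPM (log2 change 2.00, SE 0.13, adjusted p = 2.37e-05), but none of the other 18 cytosolic heat shock genes passed, and Hspa1a stood at 2.09 ± 0.665 and 1.65 ± 0.233 CPM (adjusted p = 0.735). Atf4, the factor of the integrated stress response, rose from 74 ± 2.36 to 102 ± 5.08 CPM (log2 change 0.46, SE 0.052, adjusted p = 0.00152), 1 of 25 unfolded protein response genes. The list counts in this paragraph stand beside 0.815% called higher over all genes tested. Of 15 p53 target genes limma and limma-voom called 0, while 5 were higher and 1 lower at an unadjusted p under 0.05. At that level 641 of all 15825 genes tested were higher and 954 lower. Of 20 glucocorticoid-responsive genes, 3 rose: Cebpd, Mt2 and Mt1, the last 2 being metallothioneins with near-identical copies in the genome. Mt2 rose from 22.8 ± 3.08 to 55.5 ± 7.7 CPM (log2 change 1.28, SE 0.12, adjusted p = 0.000528), and Mt1 from 99.7 ± 6.15 to 141 ± 19.4 CPM (log2 change 0.49, SE 0.093, adjusted p = 0.0417). Other members, such as Zbtb16 at 26.3 ± 9.02 and 11.9 ± 3.12 CPM, did not pass (adjusted p = 0.218). The Mt1 call was lost without CNO 3, CNO 4, CNO 5, vehicle 2, vehicle 3, vehicle 4 or vehicle 5 (adjusted p from 0.0692 to 0.135). The count of 3 was 1 without CNO 3, CNO 4, CNO 5, vehicle 2, vehicle 3 or vehicle 4, and 3 without vehicle 3 and 5 together. Among 19 MAP kinase feedback genes Myc and Ier3 rose, from 3.03 ± 0.306 to 6.08 ± 0.707 CPM and from 4.84 ± 0.447 to 10.7 ± 1.44 CPM (log2 change 1.14, SE 0.12, adjusted p = 0.000987 for Ier3). Among clock genes Nfil3 rose (log2 change 0.69, SE 0.13, adjusted p = 0.0348), and its call was lost without CNO 3, CNO 4, CNO 5, vehicle 2, vehicle 3 or vehicle 4 (adjusted p from 0.0679 to 0.149).

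The 29 decreases were small, and those named include genes of blood vessels, Notch signalling and glia. Clec14a, a C-type lectin of endothelial cells, stood at 2.08, 2.1, 2.46 and 1.93 CPM after CNO and at 3.6, 3.74, 3.77 and 5.63 CPM after vehicle. It had the largest log2 decrease of the called genes (log2 change -0.94, SE 0.18, adjusted p = 0.0361), and its call was lost without CNO 2, CNO 3, CNO 4, CNO 5, vehicle 2, vehicle 3 or vehicle 4 (adjusted p from 0.0585 to 0.13). Of 18 endothelial markers 2 fell and 1 rose (Slc2a1), with a median log2 change of -0.29, and in 9 of them all CNO libraries were below all vehicle libraries. At an unadjusted p under 0.05 by limma, 11 of the 18 were lower and 1 higher. Over all 15825 genes tested, 954 were lower and 641 higher at that level, and CNO libraries lay wholly below vehicle libraries in 4.03%. Cldn5, the main claudin of the blood-brain barrier, stood at 17.1, 17.3, 22.9 and 16 CPM after CNO and at 27.1, 24.9, 29.6 and 31.1 CPM after vehicle (log2 change -0.63, SE 0.12, adjusted p = 0.0347), and was not called without CNO 2, CNO 3, CNO 5, vehicle 2, vehicle 4 or vehicle 5 (adjusted p from 0.0675 to 0.131). Slco1a4, an organic anion transporter with close paralogs, averaged 23.7 ± 3.51 against 34 ± 1.63 CPM (log2 change -0.53, SE 0.096, adjusted p = 0.0295), and was not called without CNO 2, CNO 3, CNO 5, vehicle 2, vehicle 3 or vehicle 4 (adjusted p from 0.0816 to 0.117). Tek and Kdr, receptors for angiopoietin and VEGF, were lower in every CNO library without passing (log2 change -0.52 and -0.51, adjusted p = 0.126 and 0.198).

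Pdgfrb, the PDGF receptor of pericytes, stood at 16.3, 14.6, 16.4 and 14.6 CPM after CNO and at 23.8, 22.1, 23.5 and 19.4 CPM after vehicle (log2 change -0.52, SE 0.084, adjusted p = 0.0164). It was the only call among 13 pericyte and smooth muscle markers (median -0.25), and it was lost without CNO 3, CNO 5, vehicle 2, vehicle 3 or vehicle 4 (adjusted p from 0.0501 to 0.0842). At an unadjusted p under 0.05 by limma, 5 of those 13 markers were lower and 0 higher. The summed level of the 13 was 153 to 170 CPM after CNO and 177 to 200 CPM after vehicle, without overlap. The 10 fibroblast and meningeal markers held 0 calls by limma or limma-voom and 4 decreases at an unadjusted p under 0.05, and their sum was 98.4 to 104.9 CPM after CNO and 105.7 to 122.7 CPM after vehicle. At that unadjusted level, 954 of all 15825 genes tested were lower. Endothelial markers summed to 302 to 350 CPM after CNO and 335 to 390 CPM after vehicle, and no endothelial marker was at 0. These sums move with the decreases of single vessel genes, and their part in the result was not tested.

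Nrarp, a feedback inhibitor and target of Notch, averaged 10.6 ± 1.69 against 18.4 ± 2.72 CPM (log2 change -0.79, SE 0.13, adjusted p = 0.0229). Its call was lost without CNO 3, CNO 4, CNO 5, vehicle 2, vehicle 3 or vehicle 4 (adjusted p from 0.0671 to 0.105). Of 26 developmental signalling genes tested it was the only one to fall, and Fzd1, a Wnt receptor, the only one to rise (log2 change 0.43, adjusted p = 0.0404), with a list median of -0.33. At an unadjusted p under 0.05, 12 of the 26 were lower and 2 higher, and in 6 all CNO libraries were below all vehicle libraries. Over all 15825 genes tested, 954 were lower and 641 higher at that level, and 4.03% had all CNO libraries below. Fzd1 was not called without CNO 2, CNO 3, CNO 5, vehicle 2, vehicle 3, vehicle 4 or vehicle 5 (adjusted p from 0.0605 to 0.172). Hes5, the Notch effector of astrocytes, stood at 5.92 ± 1.9 and 10.4 ± 3.59 CPM and did not pass (adjusted p = 0.45). Lmcd1, a LIM domain protein, averaged 2.6 ± 0.24 against 4.76 ± 0.204 CPM (log2 change -0.87, SE 0.12, adjusted p = 0.00684). It was called without each single library but not without vehicle 3 and 5 together (adjusted p = 0.0904). Insc, which orients the division axis of neural progenitors, fell by 0.65 on the log2 scale (adjusted p = 0.011), and was not called without vehicle 2 (adjusted p = 0.0552). Lrrc45, a centrosomal protein, fell by 0.53 (adjusted p = 0.00644), and was not called without vehicle 3 and 5 together (adjusted p = 0.09).

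Among glial genes, Gldc, the glycine cleavage enzyme of astrocytes, averaged 20.9 ± 1.51 against 28.1 ± 1.57 CPM (log2 change -0.43, SE 0.072, adjusted p = 0.0212) and was not called without CNO 3, CNO 4, vehicle 2, vehicle 3 or vehicle 4 (adjusted p from 0.0585 to 0.106). It was the only one of 36 astrocyte markers to fall, while Ppp1r3c and F3 (tissue factor) rose, F3 from 23.9 ± 1.45 to 35 ± 1.89 CPM (log2 change 0.55, SE 0.066, adjusted p = 0.0022); the list median was -0.091. At an unadjusted p under 0.05, 9 of the 36 were lower and 3 higher, and in 5 all CNO libraries were below all vehicle libraries. The matching values over all 15825 genes tested were 954 lower, 641 higher and 4.03% with all CNO libraries below. Gpr34, a lysophosphatidylserine receptor of microglia, averaged 22.3 ± 0.788 against 28.7 ± 2.29 CPM (log2 change -0.36, SE 0.069, adjusted p = 0.0429) and was not called without CNO 2, CNO 3, CNO 4, CNO 5, vehicle 2, vehicle 4 or vehicle 5 (adjusted p from 0.0899 to 0.144). P2ry12, a further microglial receptor, stood at 45.5 ± 2.71 and 53 ± 1.69 CPM (adjusted p = 0.143). Erbb3, the neuregulin receptor of oligodendrocyte lineage cells, averaged 15.9 ± 1.51 against 22.5 ± 1.5 CPM (log2 change -0.51, SE 0.083, adjusted p = 0.0181) and was not called without CNO 3, CNO 5, vehicle 2 or vehicle 3 (adjusted p from 0.0644 to 0.0956). The other named decreases, Nat1, Tmem98, Rgs11, Selenbp1, Ppfibp2 and Nim1k, had log2 changes from -0.74 to -0.44. Of these, Nim1k was called without each single library and the others were not, and Nim1k was not called without vehicle 3 and 5 together (adjusted p = 0.0631). No call was made by limma or limma-voom among 18 oligodendrocyte, 21 leukocyte or 14 ependymal and choroid plexus markers. At an unadjusted p under 0.05, 3 oligodendrocyte markers were lower, 0 leukocyte markers differed, and 1 ependymal or choroid plexus marker was higher and 1 lower.

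Neuronal gene groups gave almost no calls, but few genes were called at all. Of all 15825 genes tested, 0.815% were called higher and 0.183% lower, and at such shares lists of this size hold few calls or none. None of 22 medium spiny neuron markers passed (median log2 change -0.10, range -0.21 to 0.075), and Adora2a, the adenosine receptor of indirect pathway neurons, stood at 278 ± 55.5 and 320.2 ± 43.4 CPM (adjusted p = 0.709). At an unadjusted p under 0.05 their count was also 0, and limma-voom on the recovered reads called 0. Likewise limma called 0 of 20 pan-neuronal, 14 striatal interneuron, 26 glutamate and GABA synapse, 22 dopamine, acetylcholine and GABA-B signalling and 17 neuropeptide genes. At an unadjusted p under 0.05, 2 of the pan-neuronal genes and 1 of each of the other 4 lists were higher and 0 were lower, and limma-voom called 0 in each list. Over all genes tested, 641 were higher and 954 lower at that unadjusted level. The lone call among 15 cortical and hippocampal neuron markers was Rorb, a nuclear receptor also expressed by other cells, at 66, 36.8, 46.9 and 46 CPM after CNO and 22.4, 22.5, 23.9 and 17.4 CPM after vehicle (log2 change 1.16, SE 0.17, adjusted p = 0.0176). It was not called without CNO 4, CNO 5 or vehicle 2 (adjusted p from 0.0603 to 0.0696), and the summed level of that list ranged from 239 CPM in CNO 4 to 774 CPM in CNO 5. Scg2, a granin of secretory vesicles, was higher in every CNO library but did not pass, at 449 ± 35.6 and 358 ± 26.1 CPM (adjusted p = 0.0964). Limma and limma-voom each called 0 of 45 oxidative phosphorylation genes and 0 of 77 cytosolic ribosomal protein genes, with medians of -0.027 and -0.042, and 0 and 2 of them were lower at an unadjusted p under 0.05. Rpl22, whose tagged form is used in some ribosome pulldowns, stood at 150.3 ± 20.7 and 148 ± 17.2 CPM, and Chrm4, the mouse M4 receptor gene, at 255 ± 22.9 and 254 ± 47.9 CPM (adjusted p = 0.982 and 0.982).

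The same mice also gave the astrocyte ribosome libraries, and those allow each change in input to be set beside the change in IP. In IP, 1599 of 15602 genes tested were higher after CNO (10.2%) and 1104 were lower (7.08%). All 129 genes that were higher in input were also higher in IP, which is 8.07% of the IP increases. Of the 29 that were lower in input, 16 were lower in IP (55.2% of the input list and 1.45% of the IP decreases) and 13 were not called there. Input and IP share mice and lysates, so these counts are not independent evidence. The median log2 change of the 129 was 0.93 in input and 2.18 in IP. That of the 29 was -0.51 in input and -0.50 in IP.

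The difference between the changes was tested as an interaction in all 16 libraries, where 680 of 16256 genes had a larger CNO effect in IP (4.18%) and 93 a smaller one (0.572%). With the mouse, which input and IP share, as a block, the counts were 1018 and 222. Without input libraries vehicle 3 and 5 they were 468 and 41. Of the 129 higher genes, 96 had a larger increase in IP, 0 a smaller one, and 33 did not pass; without vehicle 3 and 5 the first count was 86. Thbs1 had log2 changes of 1.71 in input and 5.25 in IP (difference 3.54, SE 0.33, adjusted p = 4.27e-06). Il6, which passed the filter in input through the CNO libraries alone, had log2 changes of 3.13 and 6.77 (difference 3.63, SE 0.99, adjusted p = 0.0478). Its interaction call was lost without any 1 input library, without any 1 CNO IP library and without vehicle IP 3 (adjusted p from 0.0548 to 0.105), under upper quartile scaling (adjusted p = 0.0538) and without vehicle 3 and 5 together (adjusted p = 0.201). Nr4a3, Sphk1, Fosl2 and Il11 differed by 3.26, 3.16, 2.79 and 2.65 (adjusted p = 2.28e-08, 0.00181, 1.3e-07 and 3.27e-05). Among the genes whose difference did not pass were Dio2 (log2 change 1.32 in input and 1.67 in IP), Fam167a (2.27 and 2.55), Mt2 (1.28 and 1.37) and Rorb (1.16 and 1.24). Their interaction adjusted p-values ran from 0.228 for Dio2 to 0.954 for Rorb, which does not show that the effects were equal.

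Among the 29 lower genes, the interaction passed in 5. Pdgfrb and Nim1k fell further in IP, with IP minus input differences of -0.80 and -0.88 on the log2 scale (adjusted p = 0.0215 and 3.28e-05). The Pdgfrb difference did not pass without vehicle IP 2, vehicle IP 4 or vehicle input 5 (adjusted p from 0.05 to 0.0555), nor without vehicle input 3 and 5 together (adjusted p = 0.131). Carns1, Miip and Lrrc45 fell less in IP, and Lrrc45 had log2 changes of -0.53 in input and -0.055 in IP (adjusted p = 0.00279). Arc, Npas4 and Egr3 did not pass in the interaction either (adjusted p = 0.612, 0.879 and 0.919), whereas Nr4a1, Egr1 and Junb, not called in input, had larger changes in IP, of 2.10, 0.95 and 1.99 (interaction adjusted p = 0.000576, 0.00454 and 0.000415).

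**Figure D5:**
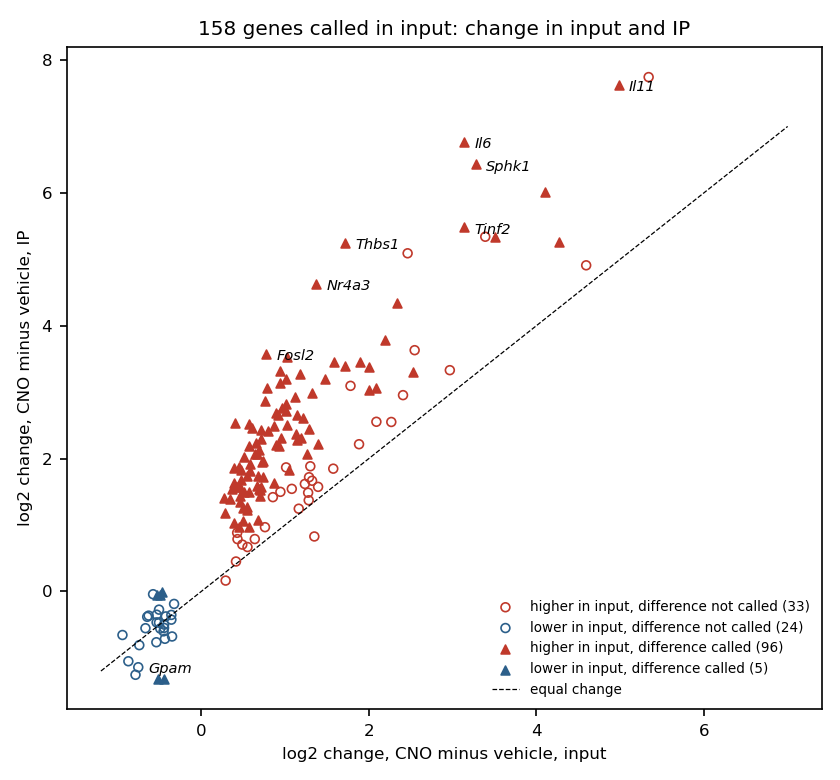
Log2 change in IP against log2 change in input for the 158 genes called in input; red genes were higher and blue lower in input, filled triangles mark genes whose difference passed the interaction test, and the dashed line marks equal change. Of the 129 higher genes, 96 are triangles, all above the line.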

How the data were processed

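RNA-seq libraries were made from 100 ng of input or IP RNA with an Ovation RNA-Seq System V2 kit, per the labels' protocols. The submitters' processing notes name bcl2fastq 2.17, STAR, HTSeq, limma and the mouse build mm10. The sources used here do not state the strand setting and annotation of the counting. The deposited values are log2 CPM, made by the authors with a prior count of 0.25 and a normalized library size, as the values themselves show: taking both back gave whole reads (within 0.01 read) for 100.0% of values in each library.

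From these files, CPM (counts-per-million) were computed from recovered reads and the normalized library size. Genes at 0.2335 CPM (10 reads in the median library) or more in 4 input libraries were tested on the deposited log2 values, CNO against vehicle, with limma 3.58.1 (R 4.3.3, trend and robust settings, Benjamini-Hochberg over all genes tested, called at an adjusted p under 0.05). Fold changes are differences between means on this log2 scale, so they can differ from ratios of mean CPM, and the prior count draws those of low genes towards 0. IP minus input was tested as an interaction over all 16 libraries. Input and IP are paired by the mouse codes in the titles, and a fit with the mouse as a block was an alternative. Alternatives were other filters, pseudocounts, scalings, limma-voom on recovered reads, array weights, a replicate block, 1 fit of all libraries and leaving out each library. On simulated input libraries of 15825 genes, 83.6% of genes changed by 0.5 and 100% of those changed by 1 on the log2 scale were recovered. The simulation gave every gene the same dispersion, drew genes independently and changed only genes above 1 CPM. Its shares therefore do not carry over to real genes with a wider spread. Cebpb and Ccl12, for example, had fitted log2 changes above 1 and were not called. Named genes are the 15 largest called changes each way with no overlap and at least 1 CPM, the leading members of each list (up to 6, or the 4 largest each way, and 2 not called), the largest interaction differences (6 each way), the 5 most abundant called genes, and Thbs1, Fos, Rpl22 and Chrm4; other names were chosen after their values were seen. Some genes counted in the lists are not reported here by name. Gene models without a proper name were counted but not named (1 higher and 1 lower). The comparison and the 36 gene lists were chosen with earlier results of these data known. Coordinates and overlaps are from GENCODE M21 (GRCm38, which mm10 is), and matched 228 of 229 named or called genes.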

Additional observations from a re-analysis of the deposited data

Results flagged for a closer look

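In 11 of 300 groups of 4 libraries examined, 1 library stood apart from the other 3 by Dixon's test, where chance flags about 1 group in 20. Thbs1 in CNO 3, at 4.83 CPM, was the lowest of its group, and Tinf2 in CNO 2, at 84.2 CPM, was likewise the lowest. Crem and Btg2 were lowest in the same library, CNO 2, at 30.1 and 25.3 CPM, and the leukocyte marker sum there was 565.7 CPM. Cnn1 was lowest in CNO 3, at 0.58 CPM. Among vehicle libraries, vehicle 5 held the highest Clec14a (5.63 CPM), the lowest Gldc (25.7 CPM) and the lowest Plin4 (5.68 CPM). Vehicle 4 held the highest Acta2 (7.85 CPM) and the highest Slc22a6 (2.91 CPM), genes of smooth muscle and of meningeal cells.

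The CNO effect differed between IP and input, by the interaction test in limma, for 36 of the named genes called in input. The differences of the leading increases, IP minus input on the log2 scale, were 3.63 for Il6, 3.54 for Thbs1, 3.26 for Nr4a3, 3.16 for Sphk1, 2.79 for Fosl2 and 2.65 for Il11. Those of the decreases were -0.796 for Pdgfrb and -0.877 for Nim1k. The Il6 and Pdgfrb differences were lost in some of the alternatives given above.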

How the results depend on the processing

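No result reversed. Of 66 named genes called in input, 32 were called under all 20 alternatives, and 71 of the 129 higher genes and 1 of the 29 lower genes were called in every setting. The higher count (129) was 205 with array weights and 85 to 155 with 1 library left out, and of those also higher in IP it was 85 to 150. The lower count (29) was 106 with array weights, 105 with all 16 libraries in one fit, 5 without vehicle 3 and 5, and 4 to 27 with 1 library left out. The count lower in both (16) was 9 without the trend and robust settings, 47 with array weights, 53 in the fit of 16 libraries, 5 without vehicle 3 and 5, and 3 to 17 with 1 library left out. With 1 library left out, the counts of higher list members were 9 to 15 for immediate early genes, 1 to 3 for delayed genes, 7 to 13 for AP-1 factors, 4 to 10 for cytokines and 1 to 3 for glucocorticoid-responsive genes. Delayed genes also gave 1 without the trend and robust settings. The interaction count below 0 (93) was 201 under upper quartile scaling, 41 without vehicle 3 and 5 and 44 to 111 with 1 library left out. The causes were not tested, beyond the fewer samples of these fits. Scaling moved the median change from -0.022 to -0.018 (upper quartile) or -0.004 (median).

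Deviations from the group means of same-numbered CNO and vehicle libraries correlated at -0.052, -0.18, -0.373 and 0.001, and in no pair was the own number the best match. This check cannot settle whether the replicate numbers pair the samples, because each own number was set against the best of several others. With the replicate number as a block, 95 genes were higher (88 of the 129) and 7 lower (4 of the 29), 5 of these also lower in IP, and 1 glucocorticoid-responsive gene was called. With the mouse as a block in the interaction, 222 genes were below 0, and 1018 above 0.

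Depth limits what can be said of genes under 1 CPM, such as Il6 and Fosl1 after vehicle. The array weights were lowest for CNO 2 (0.42) and highest for vehicle 2 (3.41).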

Other observations

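Several called genes outside the lists encode proteins of the cell surface and matrix; they were chosen after their values were seen. Adamts1, a secreted metalloproteinase, stood at 60.7 ± 13 CPM after CNO and 14.2 ± 1.96 CPM after vehicle (SD, n = 4 each, log2 change 2.08, SE 0.16, adjusted p = 0.000229 by limma). Tnfrsf12a, the receptor of the cytokine TWEAK, stood at 10.8 ± 1.48 and 2.39 ± 0.484 CPM (log2 change 2.19, SE 0.16, adjusted p = 0.000105). Fgf2, a growth factor whose gene overlaps an antisense gene, stood at 2.49 ± 0.427 and 0.843 ± 0.184 CPM (log2 change 1.57, SE 0.23, adjusted p = 0.00755). Has2, a hyaluronan synthase that also overlaps an antisense gene, stood at 2.72 ± 0.46 and 0.813 ± 0.249 CPM (log2 change 1.78, SE 0.27, adjusted p = 0.0105), and was not called without CNO 5 (adjusted p = 0.0546). Met, the receptor of hepatocyte growth factor, rose from 2.83 ± 0.629 to 7.08 ± 2.18 CPM (log2 change 1.30, SE 0.23, adjusted p = 0.0253), but was not called without CNO 2, CNO 3, CNO 5, vehicle 2, vehicle 3 or vehicle 4 (adjusted p from 0.0512 to 0.115).

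Emd and Ifrd1, also outside the lists and chosen after their values were seen, rose. Emd, which encodes emerin, stood at 71.5, 77.7, 83.2 and 73.6 CPM after CNO and 24.4, 25.3, 23.9 and 28.4 CPM after vehicle (log2 change 1.58, SE 0.071, adjusted p = 1.76e-06). Ifrd1, a transcriptional co-regulator, stood at 94.5, 107, 113 and 106 CPM after CNO and 41.3, 40.5, 43 and 43.2 CPM after vehicle (log2 change 1.32, SE 0.062, adjusted p = 1.85e-06). In both genes the groups did not overlap.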
